A study of Mus musculus with 8 samples.

Results

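The gene expression of an acute undifferentiated leukaemia (AUL) that arose with N-Myc overexpression was set against that of normal lineage-negative bone marrow cells. The comparison used every gene of the deposited table with an FPKM (fragments scaled by transcript length and by the library total) of at least 1 in either library, which was 10759 of the 16434 genes listed. Poly(A) RNA had been sequenced in 8 libraries of bone marrow cells from C57BL/6 mice aged 8 to 10 weeks, 1 library for each of 4 leukaemias and 4 normal populations. The AUL cells carried GFP and were sorted as negative for B220, CD3, Mac1 and Gr1. The control cells came from normal marrow, had no leukaemia and no GFP gate, and were labelled as negative for the same 4 antigens, while the protocol names a cocktail of 7 lineage antibodies. The other 6 libraries, used here only to place levels, were B-ALL (B220+ GFP+), T-ALL (CD3+ GFP+), AML (Mac1+ Gr1+ GFP+), normal B220+ cells, normal CD3+ cells and normal Mac1+ Gr1+ cells. How N-Myc was introduced, and how many mice contributed cells to each library, was not given in the sources used here. With 1 library a side, every difference describes this pair of libraries, has no replicate check and carries no p-value.

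An undifferentiated leukaemia is one whose blasts lack the surface proteins that assign them to the B, T or myeloid lineage. Lineage-negative marrow, which remains after cells with such proteins have been removed, is where blood stem cells and early progenitors are found, beside other cells that the antibodies miss. T cells read antigen with a receptor made of rearranged alpha and beta, or gamma and delta, chains, and pass the signal on through the CD3 chains and the kinases Lck and Zap70. N-Myc is a transcription factor of the MYC family, which is known for driving genes of growth, ribosome production and metabolism.

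The differences are AUL minus lineage-negative on the log2(FPKM + 1) scale, which understates the change of genes with low values, and folds divide one FPKM by the other without a pseudocount. A gene was counted as higher or lower when this log2 difference was at least 1 and the FPKM of the higher library was at least 1. Members of a list are counted as tested when they reach 1 FPKM in either library, and those under it in both, or not listed, are left out of the counts. By the rule for calls 1461 of the 10759 genes (13.6%) were higher in AUL and 3179 (29.5%) were lower. The median difference was -0.18, the 5th percentile was -3.45 and the 95th percentile was 1.65. Differences of at least 5 were found for 22 genes in the higher and 156 genes in the lower direction, so the lower genes were more numerous and further from 0. Intervals of folds are 95% intervals for the ratio of 2 fragment counts and cover counting error only. The rule by which genes entered the table is not stated, so shares refer to listed genes.

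**Figure D1:**
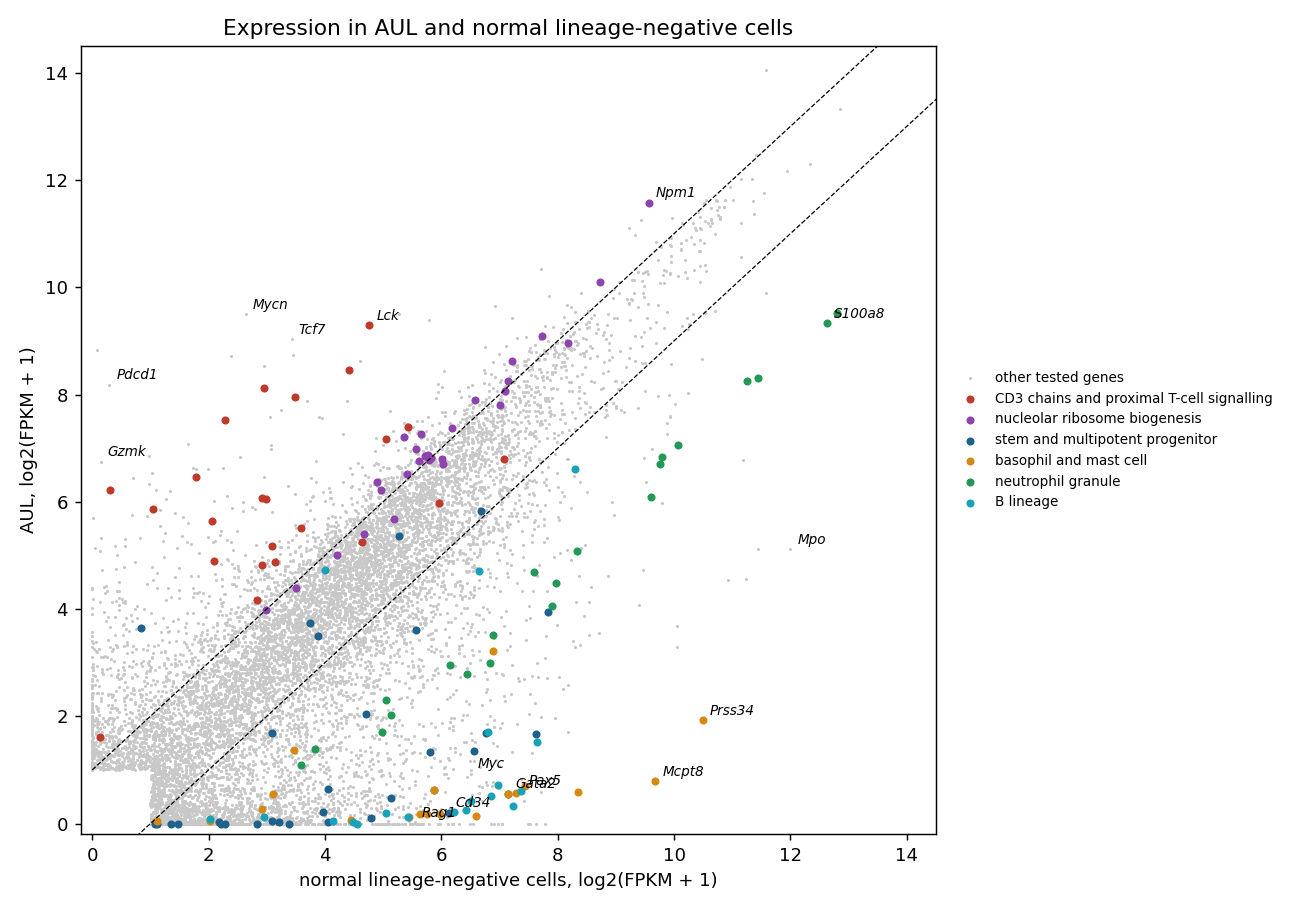
Expression in the 2 libraries, each point a gene (10759), with log2(FPKM + 1) in normal lineage-negative cells on the x axis and in AUL on the y axis. Colours mark 6 gene lists and the dashed lines a log2 difference of 1 in either direction. Of the T-cell signalling genes 20 of 23 lie above the upper line, and nucleolar genes lie near it. All 19 basophil and 21 neutrophil genes plotted, 18 of 19 B-lineage and 27 of 32 stem genes lie under the lower line, and 1 stem gene lies above the upper one. Of all genes plotted, 13.6% lie above the upper line and 29.5% under the lower one.

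Totals recovered from the steps of the values were 33818089 fragments for AUL and 44474341 for lineage-negative cells, and 37000425 to 52279996 for the other 6. Both sides departed from what their gates name. The AUL library held T-lineage transcripts at high level although CD3+ cells had been excluded, with Cd3e, whose protein the antibody binds, at 57.4 FPKM in AUL, 1.06 in lineage-negative cells, 180.1 in T-ALL, 221 in normal T cells, 23.8 in B-ALL, 0.244 in normal B cells, 2.28 in AML and 0.233 in normal myeloid cells. The other gate antigens were low in AUL: Itgam (Mac1) had 3.06 against 34.1 FPKM and Ly6g, which encodes a Gr1 antigen, 5.92 against 85.4, whereas Ptprc, the gene from which B220 is spliced, had 466 against 182 and cannot show the isoform. The lineage-negative library was a mixture: the progenitor genes Kit (57.9) and Cd34 (68.8) stood beside Pax5 of B cells (164), S100a8 of neutrophils (6311) and Prss34 of basophils (1436). In bulk RNA, fewer cells of a type and less RNA per cell cannot be told apart. RNAs that are not polyadenylated messengers differed in both directions. Ribosomal Rn18s-rs5 had 1293 against 208 FPKM and the RNase P RNA Rpph1 208 against 8.53, while the nuclear RNA Malat1 had 268 against 719. Of 12 tested genes of this kind, a list put together after their values were seen, 9 were higher and 3 lower. By annotated class, 2 of 11 ribosomal RNA genes were higher, near the 13.6% of all tested genes, and 6 were lower (29.5% among all). Of 41 small nuclear RNA genes, 3 were higher, under the share of all genes, and 20 were lower. Of 104 small nucleolar RNA genes, 30 were higher and 12 lower. The part of this difference in RNA make-up in other differences was not tested.

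Mycn, the overexpressed gene (ENSMUSG00000037169, mm10 chromosome 12, 12936093 to 12941914), had 719 FPKM in AUL, 5.24 in lineage-negative cells, 843 in T-ALL, 0.594 in normal T cells, 1587 in B-ALL, 1.66 in normal B cells, 1858 in AML and 0.518 in normal myeloid cells. The 4 leukaemias were all above the 4 normal libraries, and AUL was the lowest of the 4. Myc (chromosome 15, 61985391 to 61990374) showed the opposite order with 0.907 FPKM in AUL, 89.95 in lineage-negative cells, 0.874 in T-ALL, 98.2 in normal T cells, 2.35 in B-ALL, 47.4 in normal B cells, 0.251 in AML and 6.45 in normal myeloid cells. The remaining members of the network around the MYC partner Max were less far apart. Of 10 tested members, 1 was higher and 3 were lower, shares near those of all tested genes, with a median of -0.36. Max itself had 99.6 against 78.4 FPKM and Mnt, which pairs with Max and represses, 45.4 against 25.7. Mxd1, a related repressor of cells that have left the cycle, had 24.98 against 92.2 and Mycl 0.0517 against 8.50.

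The CD3 chains and the proteins that carry their signal had the highest median of the lists with at least 8 tested members. Of 23 members tested, 20 were higher and 0 lower, against 13.6% higher among all genes, and the median log2 difference was 2.80. Cd3g (chromosome 9, 44969572 to 44980431) had 183 FPKM in AUL, 3.84 in lineage-negative cells, 213 in T-ALL, 388 in normal T cells, 23.8 in B-ALL, 1.34 in normal B cells, 2.89 in AML and 0.650 in normal myeloid cells. Cd3d, its neighbour on the chromosome, had 276 FPKM in AUL, 6.77 in lineage-negative cells, 385 in T-ALL, 584 in normal T cells, 30.3 in B-ALL, 0.991 in normal B cells, 7.60 in AML and 10.2 in normal myeloid cells. Both genes were lower in AUL than in T-ALL and normal T cells and higher than in the other 5 libraries. Trat1, an adaptor that associates with the receptor, had the largest difference of the list (73.7 against 0.230 FPKM, 5.92). The kinase Lck had 626 against 26.03 FPKM, 24.1-fold higher (22.8 to 25.5), and 596 in T-ALL. Zap70, recruited to phosphorylated CD3 chains, had 247 against 10.2, and its substrate Lat 352 against 20.2. Sh2d1a, the adaptor SAP, had 87.3 against 2.43, and Themis, an adaptor of thymocytes, only 2.06 against 0.0952. The 3 members that were not called were Ubash3a (37.1 against 23.9), Lcp2 (62.2 against 61.2) and Vav1 (110.2 against 134), of which the last 2 are also used by myeloid cells.

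RNA of constant segments of all 4 receptor chains was read, and whether it came from rearranged loci was not tested. The constant segments had 98.6 against 2.34 FPKM for Trac (alpha), 391.97 against 23.2 for Trbc1 and 423 against 9.91 for Trbc2 (beta), 65.2 against 1.40 for Trdc (delta), and 79.04 against 0.959 for Tcrg-C2 and 134 against 2.15 for Tcrg-C4 (gamma). Trdc was 0 in T-ALL and 20.7 in normal T cells, so AUL held the highest level of the 8. The variable segments were narrow. Of 70 Trav segments listed, 4 reached an FPKM of 1 in AUL. Of these, Trav21-dv12, whose name also lists it as a delta (dv) segment, accounted for 453 of the summed 465 FPKM. It had 453 FPKM in AUL, 0.0625 in lineage-negative cells, 1.16 in T-ALL, 8.26 in normal T cells, 0.0648 in B-ALL, 0 in normal B cells, 11.2 in AML and 0 in normal myeloid cells. Normal T cells had 62 of the 70 segments at that level, none above 24.9. None of 22 listed Trbv segments reached 1 in AUL, where their highest value was 0.425, while 1 did in T-ALL (473) and 21 in normal T cells. Among the beta joining segments, Trbj2-6 had 423 against 4.22 FPKM and Trbj2-7 371 against 6.70. Trgv2 of the gamma locus (46.1 against 1.24) and Trdv5 of the delta locus (16.6 against 0.103) were the segments of their kind above 1 in AUL. Of the joining segments of the alpha locus, 27 of 40 reached 1 in AUL, none above 15.3.

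The genes of recombination and of the immature thymocyte went the other way. Rag1 and Rag2, which encode the recombinase, had 0.0134 against 45.5 and 0 against 4.001 FPKM, and Dntt, the polymerase that adds bases at the joints, had 0.0846 against 67.3. Il2ra, the receptor chain of an early thymocyte stage, had 0.0299 against 11.6. Normal B cells held Rag1 at 84.1 and Dntt at 35.2, and T-ALL at 0.00701 and 0.0441. Over the list of thymocyte stage and Notch genes, 2 of 18 tested were higher and 9 lower (29.5% among all genes). The higher ones were Notch3 (3.40 against 0.0587) and the chemokine receptor gene Ccr4 (2.27 against 0), and Notch1 was lower (47.5 against 104). Of the coreceptor genes, Cd4 had 0.495 against 0.890, Cd8a 5.55 against 0.603 and Cd8b1 0.319 against 0.788, and Cd8a was called higher. All 3 were lower in AUL than in normal T cells, which had 75.3, 238 and 268.

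Transcription factors of the T lineage were mostly higher, in 17 of 26 tested (13.6% among all genes), with a median of 1.57. The 7 that were lower made up a share near the 29.5% of all tested genes. Tcf7 (TCF-1; chromosome 11, 52252371 to 52283014), which directs progenitors into the T lineage, had 523 FPKM in AUL, 9.74 in lineage-negative cells, 882 in T-ALL, 449.7 in normal T cells, 84.98 in B-ALL, 6.81 in normal B cells, 15.9 in AML and 0.872 in normal myeloid cells. Bcl11b, which fixes that commitment, had 35.2 FPKM in AUL, 0.304 in lineage-negative cells, 45.5 in T-ALL, 59.7 in normal T cells, 5.99 in B-ALL, 0.0111 in normal B cells, 1.79 in AML and 0.0552 in normal myeloid cells. For both genes T-ALL, normal T cells and AUL were above the other 5 libraries. Gata3 (21.7 against 5.41) and Tox (20.1 against 1.17) were higher by a log2 difference of 1.83 and 3.28. Eomes, a factor of memory and cytotoxic T cells, had 86.7 FPKM in AUL, 6.70 in lineage-negative cells, 0.0430 in T-ALL, 46.6 in normal T cells, 20.9 in B-ALL, 5.68 in normal B cells, 0.579 in AML and 0.469 in normal myeloid cells, and was thus highest in AUL and 0 or nearly so in T-ALL. Tbx21 (T-bet), its relative, had 27.5 against 3.62. Among the lower ones were Bach2 (4.15 against 41.3), Zbtb7b, the factor of CD4 T cells (11.4 against 65.6), and Zbtb16 (0.310 against 3.85), the factor of innate-like T cells, which had 98.4 in T-ALL.

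Early progenitor regulators, several of which can drive T-cell leukaemia when expressed in thymocytes, had a median of -4.58. Of 13 tested, 11 were lower, against 29.5% of all genes. Lmo2 had 2.18 against 198 FPKM and Lyl1 2.22 against 108. Tal1 had 0.165 against 14.6 and Mef2c 7.29 against 48.97. Spi1 (PU.1) had 13.5 against 348. The other two were Lmo1, which was higher (47.2 against 15.4), and Gfi1, which was not called (32.5 against 39.4).

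**Figure D2:**
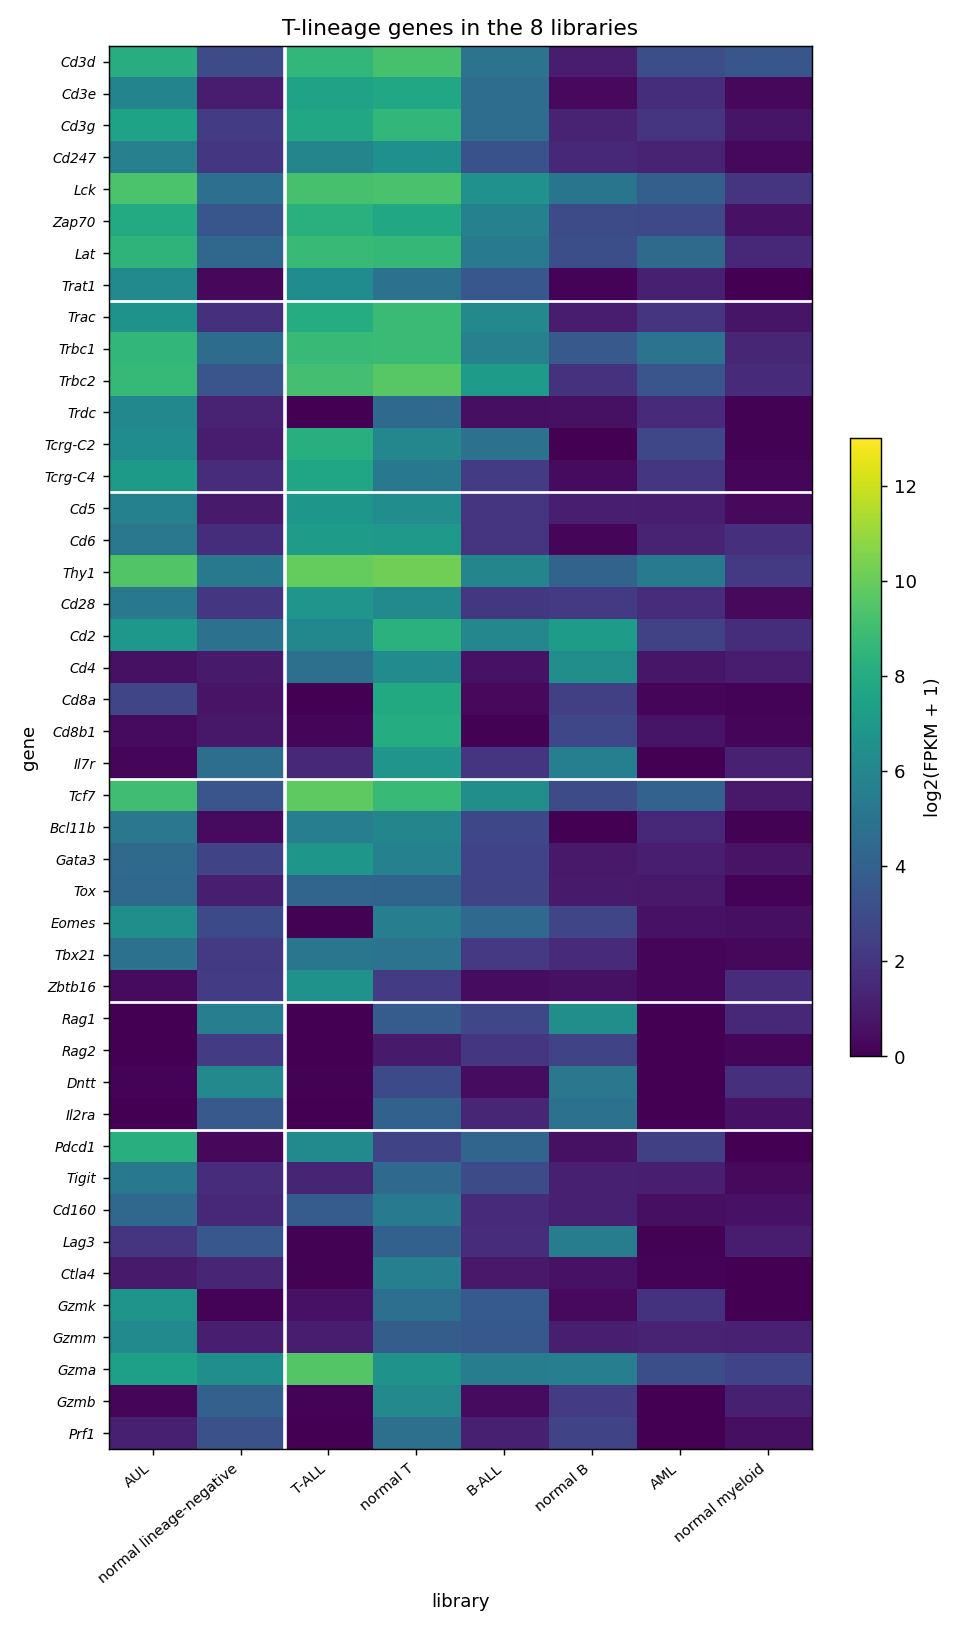
T-lineage genes (rows, grouped as CD3 and signalling, receptor constant segments, surface proteins, transcription factors, recombination genes, and inhibitory or cytotoxic genes) in the 8 libraries (columns). Colour gives log2(FPKM + 1). AUL is high in the CD3, receptor and signalling rows, as are the T-ALL and normal T columns, has Cd4, Cd8b1, Il7r, Rag1 and Dntt near 0, and is the highest of the 8 in Pdcd1 and Gzmk.

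Of 22 surface and costimulatory genes of T cells tested, 9 were higher, against 13.6% of all tested genes. The 7 that were lower made up a share near the 29.5% of all tested genes, and the median was -0.09. Cd5 had 52.01 against 0.924 FPKM, Thy1 719 against 37.5, Cd6 35.9 against 2.25 and the costimulator Cd28 37.3 against 3.21. Il7r, the receptor for interleukin-7, had 0.129 against 24.7, and Cd44, an adhesion receptor of activated cells, 10.5 against 86.5. Cd69 (13.4 against 129.96), an early activation antigen, was lower too.

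Inhibitory receptors split into single genes rather than moving as a group. Of 15 receptors and ligands tested, 5 were higher and 7 lower (13.6% and 29.5% among all genes), with a median of -0.95. Pdcd1 (PD-1; chromosome 1, 94038305 to 94052553) had the largest difference of all genes outside the receptor segments. Its level was 289 FPKM in AUL, 0.221 in lineage-negative cells, 72.1 in T-ALL, 5.35 in normal T cells, 18.1 in B-ALL, 0.494 in normal B cells, 4.57 in AML and 0 in normal myeloid cells. The next library was T-ALL, and the lineage-negative value rested on 19 fragments. Tigit had 37.2 against 2.10 FPKM and Cd160 19.5 against 1.80. Lag3 (2.87 against 10.6), Ctla4 (0.904 against 1.63) and Havcr2 (0.0450 against 0.822), which often accompany Pdcd1 on chronically stimulated T cells, were not higher. Genes for the ligand PD-L1, Cd274 (1.94 against 4.70), and for Vsir, an inhibitory receptor of myeloid cells (27.1 against 204), were on the lower side, and only the latter passed the rule for a call.

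The orphan nuclear receptor genes of the NR4A family, Egr2 and Egr3, which are induced by receptor signals in T cells, were higher, while Egr1 and most other immediate early genes were lower. Nr4a1 had 181 against 46.9 FPKM, Nr4a2 37.1 against 4.24, Nr4a3 8.86 against 0.617, Egr2 5.35 against 0.862 and Egr3 21.1 against 0.921. These were the 5 higher genes among 25 tested immediate early genes, of which 17 were lower (13.6% and 29.5% among all genes). Jun had 10.5 against 373, Fos 126 against 785, Atf3 0.221 against 46.1 and Egr1 13.98 against 61.7. Dusp2 had 135 against 134. The NR4A and EGR genes were singled out after their values were seen.

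Cytotoxic genes were divided too, with 3 of 18 tested higher, 9 lower (13.6% and 29.5% among all genes) and a median of -0.93. Gzmk (granzyme K; chromosome 13, 113171608 to 113225908) had 107 FPKM in AUL, 0.105 in lineage-negative cells, 0.539 in T-ALL, 26.2 in normal T cells, 11.8 in B-ALL, 0.257 in normal B cells, 2.73 in AML and 0 in normal myeloid cells. It was 1019-fold higher (436 to 3139) on 5 lineage-negative fragments. Gzmm (granzyme M) had 73.6 against 1.15, and Gzma 159 against 86.5, which was not called and had 732 in T-ALL. Gzmb and the pore protein Prf1 were lower, with 0.146 against 14.8 and 1.22 against 8.49. The chemokine genes Ccl3 (0.502 against 325), Ccl4 (0.627 against 172) and Ccl5 (2.22 against 90.2) were far lower. Among NK-cell receptor genes 12 of 14 tested were lower, with a median of -3.68 (-4.23 with genes at 0 fragments set at the bound that 3 fragments give). Ncr1, the NKp46 receptor, was at 0 FPKM in AUL against 18.2, at least 303-fold lower. Klrk1 had 0.0510 against 25.5. Il2rb (207 against 33.6), an interleukin receptor chain that T cells share, was higher, and Klrc1 (13.3 against 10.9) was not called. Reads of the Klra genes may be split among near-identical copies.

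Of 35 cytokine receptor and feedback genes tested, 19 were lower, against 29.5% of all tested genes, and the median was -1.27. The 5 that were higher made up a share near the 13.6% of all tested genes. Beside Il2rb, the higher ones were Il2rg (70.3 against 32.1), Il21r (35.03 against 10.9), Il27ra (35.5 against 6.04) and Il12rb1 (21.1 against 4.43). The lower ones included Csf1r (0.849 against 53.7) for macrophage colony-stimulating factor, Csf2rb (1.37 against 51.5) for the interleukin-3 family and Il6ra (0.918 against 33.2), and, of lymphocyte receptors, Il7r and Il2ra, given with the T-cell genes. Cish and Socs2, feedback genes that STAT5 induces, had 0.0668 against 2.54 and 0.0417 against 7.07. Of 22 chemokine and receptor genes, 3 were higher, namely Cxcr3 (37.4 against 3.30), Cxcr5 (17.3 against 1.79) and Ccr4, the share found over all tested genes (13.6%), and 15 were lower. Cxcr4, which retains cells in marrow, had 160.5 against 293 and was not called. Of 25 adhesion genes, 2 were higher, Itgb1 (332 against 115) and Itgb7 (443 against 186), and 16 lower.

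Among the 15 largest differences several genes had no part in these lists. Ret, a receptor tyrosine kinase of neural and gut-associated cells, had 85.6 FPKM in AUL, 0.632 in lineage-negative cells, 0.153 in T-ALL, 0.451 in normal T cells, 16.2 in B-ALL, 1.42 in normal B cells, 0.0475 in AML and 0.223 in normal myeloid cells. Itgad, an integrin alpha chain, had 92.4 FPKM in AUL, 1.05 in lineage-negative cells, 0.134 in T-ALL, 6.77 in normal T cells, 31.6 in B-ALL, 5.43 in normal B cells, 0.219 in AML and 1.05 in normal myeloid cells. Both were highest in AUL, next in B-ALL, and under 1 in T-ALL. Trpm1, a cation channel of retina and melanocytes, had 50.9 against 0.0115, with 1 fragment behind the lower value. Kctd15 had 73.9 against 0.231, Wwc1 38.98 against 0.108, Fam81a 34.4 against 0.0349 and Afp, alpha-fetoprotein, 52.9 against 0.608. The 5 genes with the largest log2 difference between AUL and the next highest of the 8 libraries were the small nuclear RNA Rn7sk (187 FPKM against 14.4 in the next library), the glutathione transferase Gsta4 (72.4 against 5.40), Ptpn14 (54.5 against 5.17), Afp (52.9 against 5.97) and Trpm1 (50.9 against 6.17). Of the 1461 higher genes, AUL was the highest of all 8 libraries in 737 (50.4%), T-ALL in 307 and normal T cells in 183. AUL was the highest in 10.7% of the 6119 uncalled genes. Among the 4 normal libraries alone, normal T cells held the highest value in 785 of the higher genes (53.7%) and in 26.8% of the uncalled ones. The call itself favours genes that are high in AUL and low in lineage-negative cells, so these shares are partly set by it.

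Stem and progenitor genes were lower in 27 of 32 tested, against 29.5% of all genes, and 1 was higher. Kit, Lmo2, Lyl1, Tal1 and others are also in the early progenitor list, and Kit and Gata2 in the basophil list, so these counts overlap. Their median was -2.94, or -3.96 with the 8 genes at 0 fragments in AUL set at their bound. Cd34 had 0.148 FPKM in AUL, 68.8 in lineage-negative cells, 0.348 in T-ALL, 2.13 in normal T cells, 1.32 in B-ALL, 3.75 in normal B cells, 0.183 in AML and 4.56 in normal myeloid cells. Gata2, a factor of stem cells and of basophils and mast cells (chromosome 6, 88193891 to 88207032), had 0.473 FPKM in AUL, 141 in lineage-negative cells, 0.0836 in T-ALL, 51.8 in normal T cells, 2.59 in B-ALL, 9.49 in normal B cells, 0.0488 in AML and 10.8 in normal myeloid cells. Kit, the receptor for stem cell factor, had 0.549 FPKM in AUL, 57.9 in lineage-negative cells, 0.849 in T-ALL, 4.43 in normal T cells, 2.92 in B-ALL, 3.98 in normal B cells, 53.4 in AML and 16.97 in normal myeloid cells. AUL was under 1 FPKM for all 3, while normal T cells held Gata2 at 51.8 and AML held Kit at 53.4. Meis1 was at 0 against 6.09 FPKM (at least 240.03-fold lower), and its partner Hoxa9 had 0.0197 against 15.5. Of 7 Hox genes tested, 6 were lower. The genes that were not lower were Prdm16 (11.5 against 0.794), the only one on the higher side of the rule, Sox4 (40.2 against 37.8), Egfl7 (12.3 against 12.4), Ly6a (10.3 against 13.8) and Cd48 (56.1 against 102).

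Erythroid genes were lower in 19 of 29 tested, against 29.5% of all genes (median -1.41). Among them were the factors Gata1 (0.266 against 22.4) and Klf1 (0.0580 against 8.24) and the carbonic anhydrase Car1 (0.453 against 91.5). The 4 higher ones, near the share of all genes (13.6%), were Zfpm1 (203 against 66.2), a GATA cofactor that T cells also use, and the globins Hbb-bs (86.1 against 12.5), Hbb-bt and Hba-a2, whose near-identical copies make the split of reads uncertain. Megakaryocyte genes were lower in 15 of 20, with Itga2b at 1.29 against 122 and Pf4 at 0.457 against 28.9.

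The list with the lowest median was that of basophils and mast cells. All 19 tested members were lower, against 29.5% of all genes. The median was -5.46 and their summed level was 17.4 against 3575 FPKM. Mcpt8, a basophil protease (chromosome 14, 56082166 to 56085273), had 0.726 FPKM in AUL, 819 in lineage-negative cells, 0.352 in T-ALL, 147 in normal T cells, 7.34 in B-ALL, 55.01 in normal B cells, 29.2 in AML and 55.3 in normal myeloid cells, and was 1127-fold lower (739.97 to 1788). Prss34, another protease of these cells (chromosome 17, 25298394 to 25300165), had 2.80 FPKM in AUL, 1436 in lineage-negative cells, 0.990 in T-ALL, 294 in normal T cells, 12.9 in B-ALL, 84.5 in normal B cells, 0.117 in AML and 99.4 in normal myeloid cells. The lineage-negative library was the highest of the 8 for both, and normal T cells came next. Cpa3, carboxypeptidase A3, had 0.480 against 155, and Ms4a2 and Fcer1a, chains of the IgE receptor, had 0.104 against 95.7 and 0.130 against 61.9. Eosinophil genes followed, with 11 of 11 lower and a median of -5.28. Prg2 had 11.9 against 1057 FPKM, Epx 0.707 against 117, and Ear1, Ear2 and Ear6, which may share reads, were lower as well.

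The GATA core motif AGATAA, searched on both strands in RefSeq promoters of GRCm38.p6 from 250 bases before to 50 after the start, was found for 6 of the 13 basophil and mast cell genes with a single listed start (46.2%). It was found for 11.5% of all 22862 such promoters, 6.49% of those of tested genes, 7.77% of the higher and 7.89% of the lower genes. The basophil promoters had a mean GC content of 49.6%, that of tested genes was 60.4%, and the part of base composition in the share was not tested. A match is a run of letters and no shown site. The 250 bases before the start of 3 basophil genes, and of Cd3g, a higher gene with the same letters, are printed as examples that hold the motif. Promoters of the list without it are not shown, nor is that of Mcpt8, which had the largest difference. AGATAA or its reverse complement TTATCT is in capitals. In Cpa3 so is AACCACA, the reverse complement of the RUNX motif TGTGGTT, which was found for 5.42% of all promoters. The motif begins 46 bases before the start in Cpa3 (chr3:20242182-20242431, minus strand), 224, 37 and 11 before it in Ms4a2 (chr19:11623720-11623969, minus strand), 31 before it in Prss34 (chr17:25298144-25298393, plus strand) and 104 before it in Cd3g (chr9:44980432-44980681, minus strand).
Cpa3: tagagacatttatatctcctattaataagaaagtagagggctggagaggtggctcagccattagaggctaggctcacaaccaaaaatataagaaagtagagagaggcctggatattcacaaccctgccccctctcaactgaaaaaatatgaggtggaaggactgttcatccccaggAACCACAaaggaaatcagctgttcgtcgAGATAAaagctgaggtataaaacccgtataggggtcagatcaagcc
Ms4a2: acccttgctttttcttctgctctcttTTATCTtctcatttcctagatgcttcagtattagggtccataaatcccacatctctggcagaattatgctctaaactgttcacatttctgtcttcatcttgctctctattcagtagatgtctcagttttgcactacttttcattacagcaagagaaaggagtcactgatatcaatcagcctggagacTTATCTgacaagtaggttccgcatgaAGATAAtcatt
Prss34: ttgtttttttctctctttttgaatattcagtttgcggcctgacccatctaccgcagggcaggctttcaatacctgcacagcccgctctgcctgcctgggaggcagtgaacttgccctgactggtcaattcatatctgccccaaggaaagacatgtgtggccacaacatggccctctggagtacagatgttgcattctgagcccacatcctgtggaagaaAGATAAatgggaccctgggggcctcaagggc
Cd3g: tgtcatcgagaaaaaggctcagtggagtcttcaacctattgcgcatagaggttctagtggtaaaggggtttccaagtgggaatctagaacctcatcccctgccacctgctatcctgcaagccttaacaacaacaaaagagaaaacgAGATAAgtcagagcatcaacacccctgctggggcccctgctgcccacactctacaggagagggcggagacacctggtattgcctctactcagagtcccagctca

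Granule genes were lower at both stages of neutrophil development. Of 15 primary granule genes, 13 were lower, against 29.5% of all genes (median -4.65). They were led by Mpo (33.6 against 4089), Ctsg (8.79 against 1059.9), Prtn3 (22.5 against 2414) and Elane (33.9 against 2797). AML held these at 2220.1, 1127, 1061 and 3481 FPKM. All 21 secondary and tertiary granule genes were lower, with differences of -3.86 to -2.45. Ltf had 318 against 2785 FPKM and S100a8 639.95 against 6311. AUL held 0.683% to 1.69% of the normal myeloid level of these 21 genes (median 1.18%), and the lineage-negative library 8.67% to 16.4% (median 10.4%). The levels in AUL were thus 6.21% to 12.9% of those in lineage-negative cells. Whether they came from neutrophils in the sort was not tested.

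Monocyte genes were lower in all 22 tested (median -2.91), as were conventional dendritic cell genes in all 10 (median -3.32). The share of all tested genes that were lower was 29.5%. F13a1 had 1.48 against 187, Ccr2 0.628 against 98.6 and Lyz2 108 against 2338. Of 12 plasmacytoid dendritic cell genes, 10 were lower, with Siglech at 0.0368 against 33.05 and Spib at 0.499 against 208. MHC class II genes, which such cells and B cells share, were lower in 9 of 10 tested (median -3.72), with H2-Oa the exception (6.47 against 6.76). H2-Aa had 3.04 against 85.4 and the invariant chain Cd74 3.86 against 136.

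B-lineage genes were lower in 18 of 19 tested, against 29.5% of all genes, with a median of -5.11. Pax5, the factor of B-cell identity (chromosome 4, 44524757 to 44710487), had 0.530 FPKM in AUL, 164 in lineage-negative cells, 1.07 in T-ALL, 149.5 in normal T cells, 482 in B-ALL, 1073 in normal B cells, 0.350 in AML and 7.76 in normal myeloid cells. Vpreb3 had 0.262 against 149.9 and Igll1, of the surrogate light chain of early B cells, 0.166 against 73.3. Cd22 was the exception (25.3 against 14.96). Plasma cell genes were lower in 17 of 22, such as Jchain (2.98 against 208), and Sdc1 (32.5 against 23.4) was not. Of immunoglobulin heavy chain segments 113 of 116 tested were lower (median -3.84, or -5.17 at the bound), and of light chain segments 101 of 102 (median -4.19). No immunoglobulin segment was higher. Of 123 Ighv segments listed, 6 reached 1 FPKM in AUL and 99 in lineage-negative cells.

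**Figure D3:**
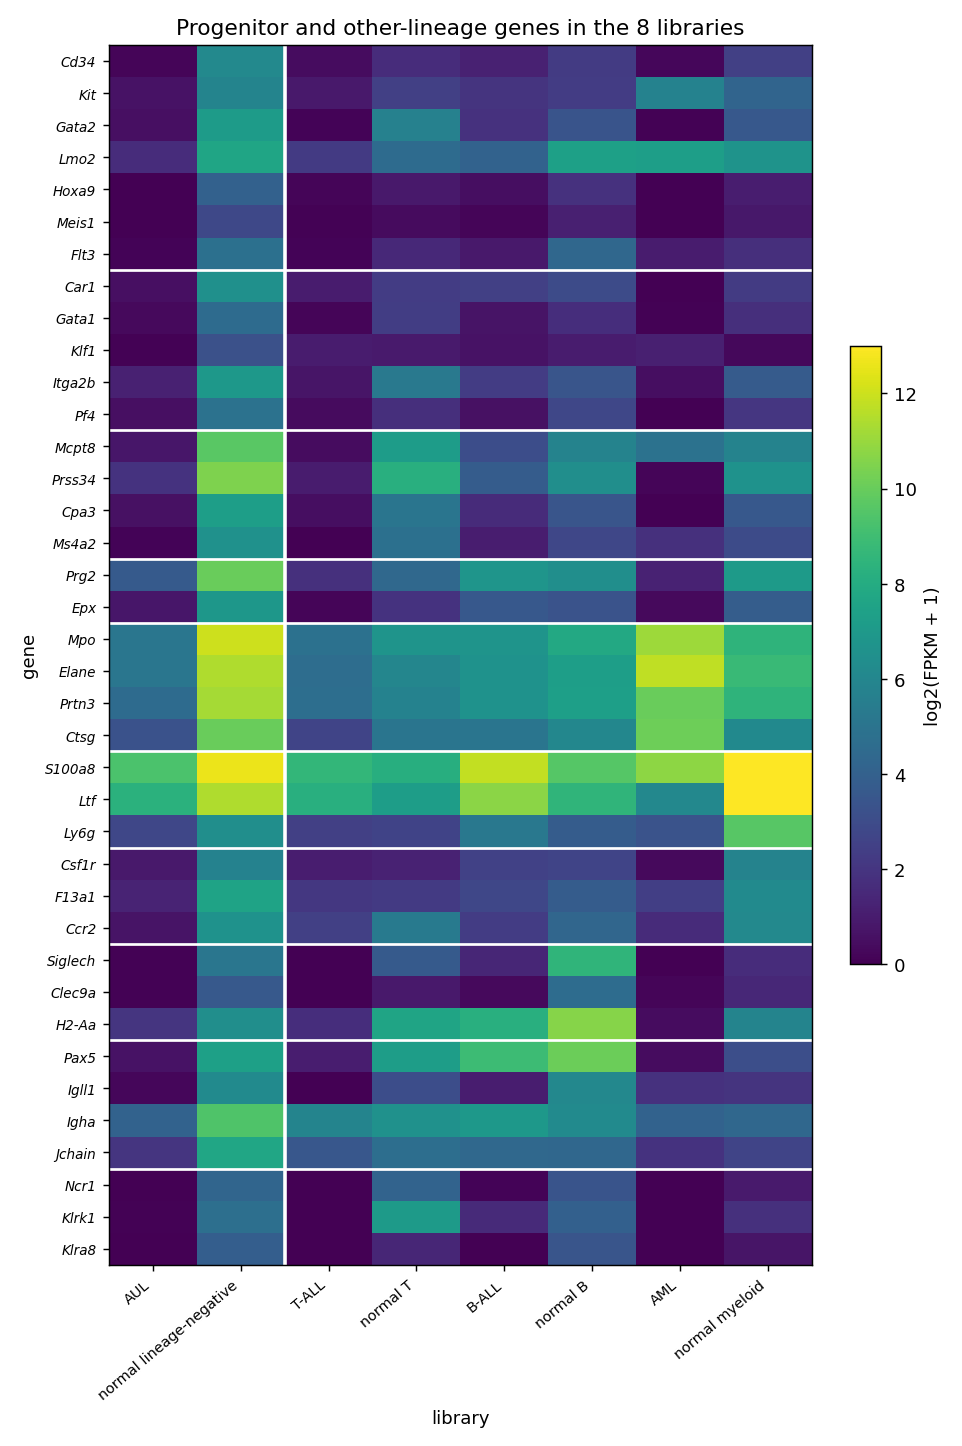
Genes of progenitors and of other lineages (rows, grouped as stem and progenitor, erythroid and megakaryocyte, basophil, eosinophil, primary granule, neutrophil, monocyte, dendritic, B and plasma, and NK cells) in the 8 libraries (columns). Colour gives log2(FPKM + 1). The lineage-negative column is above AUL in every row, and AUL is under 1 FPKM in most of them, but not for S100a8, Ltf or the primary granule genes.

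The lower genes were not all at their peak in lineage-negative cells. Of the 3179, the highest of the 4 normal libraries was normal myeloid in 1055, lineage-negative in 1025 (32.2%), normal B in 883 and normal T in 216. Lineage-negative cells were the highest of the normal libraries for 34.9% of the 6119 uncalled genes, a like share. Only 1551 of the 3179 lower genes reached 1 FPKM in AUL. When genes that another normal library held at 4-fold or more of the lineage-negative level were left out, 968 higher and 2697 lower genes remained of 9441.

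Interferon-stimulated genes were lower in 26 of 29 tested, against 29.5% of all genes, and none was higher, with a median of -2.01. Ifi27l2a had 5.88 against 130.2 FPKM, Trim30a 4.36 against 72.8, Oasl2 0.868 against 22.2 and Usp18, which limits interferon signalling, 0.468 against 15.1. The factor Irf7 (6.03 against 32.2) was lower, and Irf1 (63.2 against 73.4) and Ifit2 (13.1 against 10.4) were not called. MHC class I genes were less far apart, with 6 of 15 lower (40%, against 29.5% of all genes) and a median of -0.81. B2m, the light chain, had 736 against 1486 and H2-K1 691 against 1192, and reads of H2 genes can be shared between near-identical copies.

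**Figure D4:**
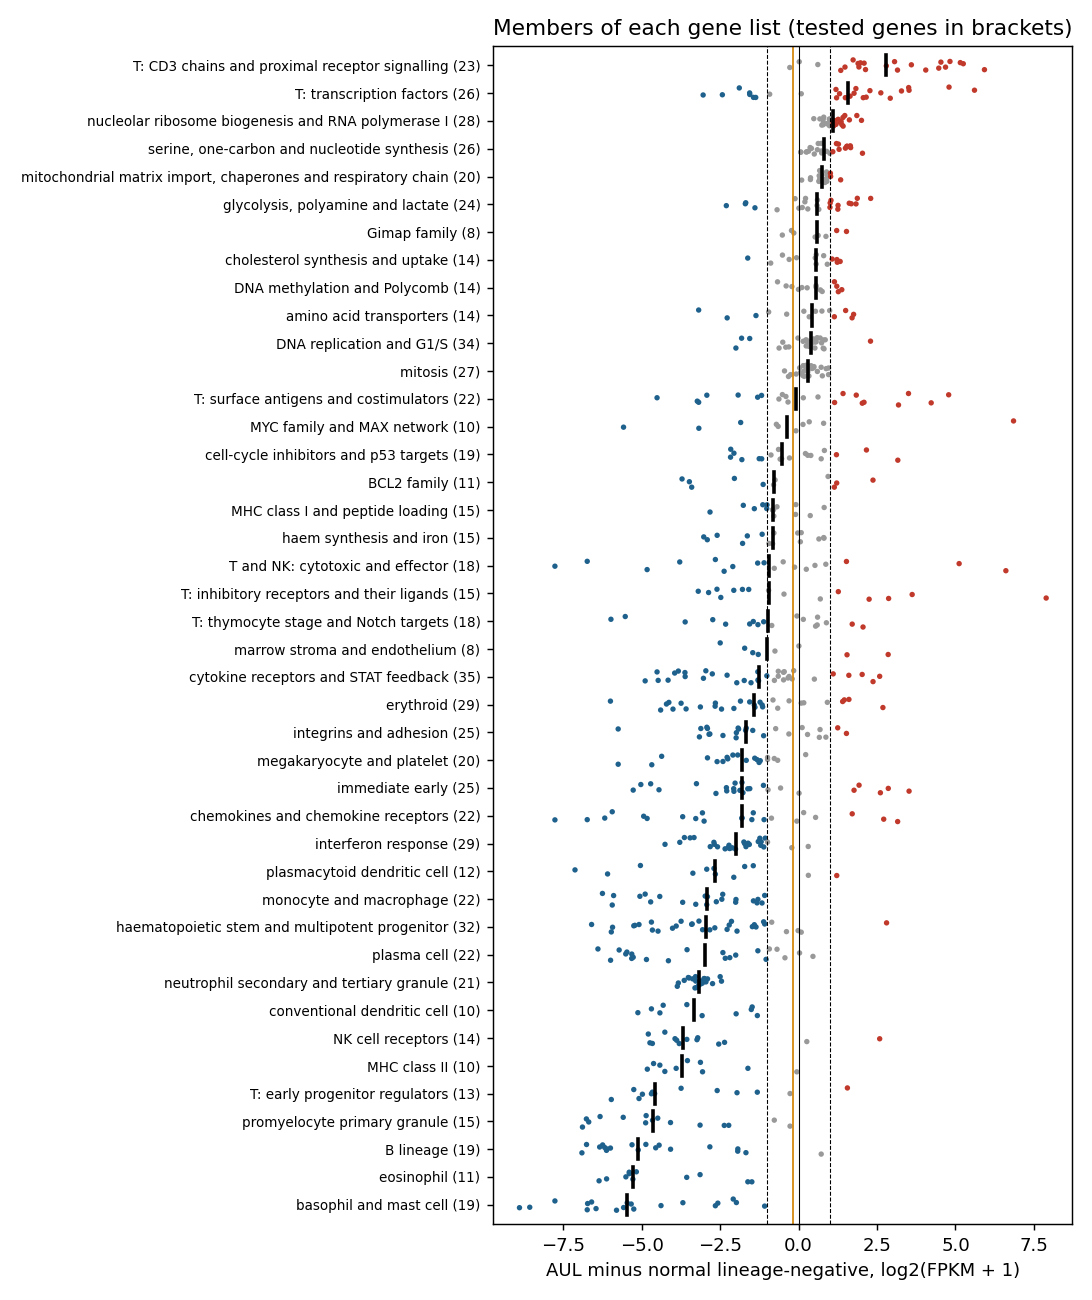
Log2 differences (AUL minus lineage-negative, x axis) of the tested members of each list with at least 8 of them (y axis, number of tested genes in brackets). Points are genes, red for higher, blue for lower and grey for neither. Black bars are list medians and the orange line is the median of all tested genes (-0.18). The medians run from 2.80 for CD3 and signalling genes to -5.46 for basophil and mast cell genes.

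Genes of growth showed smaller and more even differences than lineage genes. Of 28 tested genes of nucleolar ribosome biogenesis, 16 were higher and 0 lower, with a median of 1.11 and a range of 0.49 to 2.01. Npm1, nucleophosmin, had 3045 FPKM in AUL, 757 in lineage-negative cells, 2170.1 in T-ALL, 614 in normal T cells, 2232 in B-ALL, 438 in normal B cells, 1762 in AML and 84.9 in normal myeloid cells. Bop1 (147 against 39.96) and Rrp9 (153 against 48.98), processing factors of ribosomal RNA, came next, and nucleolin, Ncl, had 1095 against 421. Cytosolic ribosomal protein genes had a median of 0.56, with 8 of 80 higher and 2 lower. Mitochondrial ribosomal protein genes had a median of 0.55, with 9 of 65 higher and 0 lower. The shares of higher genes were near or under the 13.6% of all tested genes, and most genes of both families were not called. The mitochondrially encoded genes, a list added after seeing the data, had a median of 0.32 and none of 13 was called.

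Of 26 genes of serine, one-carbon and nucleotide synthesis, 11 were higher and 0 lower (median 0.82). Adsl of purine synthesis had 244 against 58.7 FPKM, Cad of pyrimidine synthesis 203 against 63.5, and Phgdh, the first enzyme of serine synthesis, 541 against 174. Tyms (51.2 against 48.8) and Rrm2 (233 against 221), which make deoxynucleotides, were nearly level. Glycolysis genes were split. The lactate dehydrogenase genes Ldha and Ldhb had 2189 against 597 and 144 against 28.5, and the enolase gene Eno1 2451 against 688, while the hexokinases Hk1 (48.7 against 158) and Hk2 (10.7 against 56.5) and the transporter Slc2a3 (31.5 against 84.05) were lower. Over the list 10 of 24 were higher and 4 lower (median 0.60), Odc1 of polyamine synthesis among the former (170.2 against 70.5). Of 14 amino acid transporters, 4 were higher, including Slc7a5 (176 against 61.4) and Slc7a1 (123 against 37.1), and 3 lower (13.6% and 29.5% among all genes). Of 20 genes of mitochondrial import and respiration, 3 were higher, a share near the 13.6% of all tested genes, with the chaperone gene Hspd1 at 699.8 against 275, and the median was 0.76. Cholesterol synthesis had 4 of 14 higher, such as Sqle (22.99 against 9.28).

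The E-box CACGTG, the letters that MYC and MAX dimers bind, was searched in the same promoters. It was found for 7.12% of all, 10.3% of tested, 9.64% of higher, 8.73% of lower and 11.2% of uncalled genes. Among genes with a single start, the share was 4 of 21 (19.0%) for nucleolar genes and 4 of 21 for the serine and nucleotide list. For the glycolysis list it was 1 of 15 (6.67%). Ldha belongs to that list but has a second listed start, so it is not among the 15. Higher genes thus held these letters no more often than uncalled ones. The 250 bases before the start of Nop2 (chr6:125131633-125131882, plus strand), a nucleolar methyltransferase with 115 against 51.4 FPKM, and before the first listed start of Ldha (chr7:46845554-46845803, plus strand) are shown as higher genes with the motif, in capitals. It begins 60 bases before the start of Nop2, and 145 and 48 bases before the first listed start of Ldha. The 250 bases before the second Ldha start (chr7:46846832-46847081, plus strand) held 0 matches.
Nop2: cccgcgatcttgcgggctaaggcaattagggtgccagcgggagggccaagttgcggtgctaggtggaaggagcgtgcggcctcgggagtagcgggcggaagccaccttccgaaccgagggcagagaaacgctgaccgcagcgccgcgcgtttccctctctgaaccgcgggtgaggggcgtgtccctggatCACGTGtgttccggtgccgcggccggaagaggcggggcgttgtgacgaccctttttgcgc
Ldha: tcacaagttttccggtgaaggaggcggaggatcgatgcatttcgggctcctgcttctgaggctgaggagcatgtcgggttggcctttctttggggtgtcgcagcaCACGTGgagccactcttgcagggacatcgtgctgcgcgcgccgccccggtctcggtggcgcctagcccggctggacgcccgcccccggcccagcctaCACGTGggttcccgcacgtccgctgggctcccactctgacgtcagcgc

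Cell cycle genes were nearly level. None of 27 mitotic genes was called, their median was 0.30, and Top2a had 363 against 354 FPKM. Of 34 genes of replication and entry into S phase, 1 was higher, the cyclin Ccnd1 (61.3 against 11.7), and 3 were lower, Ccnd3 (68.3 against 275), Cdk6 (37.6 against 112) and E2f8 (15.6 against 57.2). Ccnd2 had 86.1 against 64.9 and was not called. Of 19 inhibitors and p53 targets, 3 were higher and 6 lower, shares near the 13.6% and 29.5% of all tested genes. Cdkn2a, which encodes p16 and p19ARF, had 12.1 FPKM in AUL, 0.463 in lineage-negative cells, 12.98 in T-ALL, 0.835 in normal T cells, 219.9 in B-ALL, 0.430 in normal B cells, 0.703 in AML and 0 in normal myeloid cells. The p53 target Zmat3 had 7.20 against 0.830, whereas Cdkn1a (13.5 against 33.5) and the inhibitor Cdkn1b (14.2 against 67.4) were lower and Mdm2 (35.99 against 54.5) was not called.

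Genes of the BCL2 family differed in both directions. Bcl2, the survival protein, had 0.554 FPKM in AUL, 16.3 in lineage-negative cells, 2.51 in T-ALL, 88.4 in normal T cells, 3.15 in B-ALL, 16.5 in normal B cells, 0.0990 in AML and 2.01 in normal myeloid cells. Of the 8 libraries AML alone was lower than AUL, and normal T cells were the highest. Bcl2l1 (BCL-XL) and Bcl2l2 were lower too, with 7.81 against 35.3 and 0.337 against 13.2 FPKM, and Mcl1 had 144 against 243 and was not called. The pro-apoptotic genes Bcl2l11 (BIM; 38.3 against 15.9) and Bax (202 against 91.1) were higher, and Bmf was lower (0.963 against 24.7). Bcl2a1d was higher (8.50 against 0.834), though its reads may be shared with Bcl2a1a and Bcl2a1b. Over the family 3 of 11 tested were higher and 5 lower (13.6% and 29.5% among all genes). Among genes of DNA methylation and Polycomb complexes, 4 of 14 were higher and 0 lower: Cbx7 (65.7 against 24.7), Cbx2 (18.6 against 7.44), Bmi1 (74.1 against 32.99) and the methyltransferase Dnmt3a (105 against 42.9).

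Differences also varied by chromosome. Over 4159 protein-coding genes with FPKM of at least 10 in both libraries, the median difference of the 195 genes on chromosome 15 was 0.74 above that of all 4159 genes, and that of the 120 genes on chromosome 12 was 0.41 above it. The other autosomes lay between -0.14 and 0.12, and the X chromosome at -0.20. On chromosome 15, 73.3% of these genes were above the median of all, and 35.9% of its 401 tested genes were called higher against 13.6% overall. Of the 439 tested genes on chromosome 12, 17.8% were called higher and 41.5% lower, against 29.5% lower overall. These 439 take in genes that the median leaves out, among them immunoglobulin heavy chain segments. Each of 8 stretches along chromosome 15 with about equal numbers of genes was above the median of all genes, by 0.11 to 0.91. Chromosome 12 ranged from -0.09 to 0.82. With each of the other 7 libraries in turn as the reference, chromosome 15 was 0.49 to 0.77 above all genes and ranked first against 6 of the 7, and second to chromosome 16 (0.87) against normal myeloid cells. Against B-ALL it was only narrowly first, at 0.551, with chromosome 19 at 0.540. Chromosome 12 was 0.11 to 0.46 above all genes, with rank 2 against 5 of the 7, rank 3 against B-ALL and rank 6 against normal myeloid cells (0.11). Lineage-negative cells against the other 3 normal libraries gave -0.09 to 0.21 for chromosome 15. Genes of chromosome 15 named above as higher include Adsl, Bop1, Sqle, Cbx7, Il2rb, Nr4a1 and Itgb7. Myc, Il7r, Csf2rb and Ly6g lie there too and were lower. The number of copies of the chromosome was not measured.

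**Figure D5:**
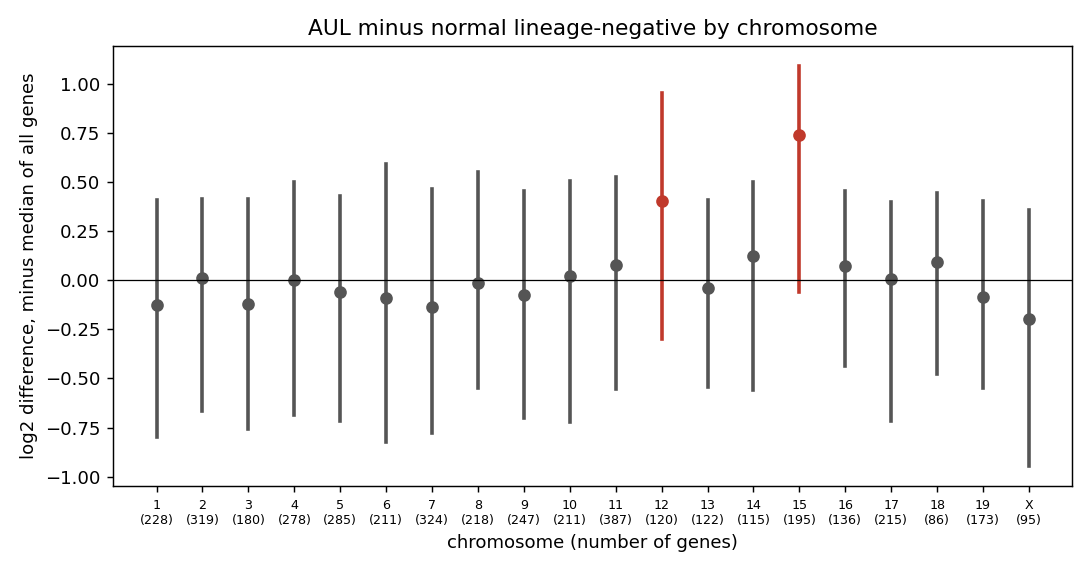
Log2 difference (AUL minus lineage-negative) of protein-coding genes by chromosome, minus the median of all 4159 genes (y axis), with the number of genes in brackets under each chromosome (x axis). Points are medians and bars run from the first to the third quartile. Chromosomes 15 (0.74) and 12 (0.41), in red, are above the other autosomes and X. Chromosome Y, with 1 such gene, and the mitochondrial genes are not plotted.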

How the data were processed

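Libraries were grouped by their GEO titles, and each group held 1 library. Per the labels' protocols, messengers were enriched on oligo(dT) beads from Trizol extracts, random primers started the cDNA, both ends were read for 150 bases, and reads that held adaptors or unclear bases were dropped. The submitters' processing notes name mm10, STAR, HTSeq and edgeR. Versions, settings and strand handling were not given in the sources used here, so overlapping genes on opposite strands may share reads. The authors deposited FPKM, which per the labels' protocols are fragments scaled by transcript length and by mapped reads.

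From these values the difference log2(FPKM + 1) of AUL minus lineage-negative cells was computed with the deposited scaling (Python 3.11.15, pandas 2.3.3, scipy 1.17.1). Multiplied by the mean transcript length of GENCODE M21, FPKM fell on whole fragments, within 0.02, for 96.4% of AUL and 96.7% of lineage-negative values tested in single-transcript genes, and for 87.9% and 88.7% over all genes tested, which gave fragment totals and counts. For a gene of median length (1562 bases), FPKM 1 stands for 52.8 fragments in AUL (95% interval 0.749 to 1.31) and 69.5 in lineage-negative cells (0.779 to 1.26). A value of 0 was given a floor of 3 fragments of that library. The listed genes held 72.2% and 72.6% of the fragments. The calling step was checked on simulated counts.

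Named genes are Mycn and Myc, the 15 highest and 15 lowest differences at FPKM of at least 10, up to 4 members per list at FPKM of at least 5, and the 5 genes at FPKM of at least 20 most above the next library. Receptor segments and clone-named genes were counted, and other list members may be given for their value. Some members that were counted are not reported by name here. The members and the 53 lists and patterns were chosen with earlier results of these data known, and 4 more lists were added after seeing them. Alternatives changed the pseudocount, filter, scaling, reference and size of a call. Promoters come from RefSeq (GRCm38.p6), in which 7155 tested genes were matched, 5703 of them with a single start.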

Additional observations from a re-analysis of the deposited data

How the results depend on the processing

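No paired analysis was possible because each group held 1 library, and for the same reason no replicate could be left out and no test was run. Against 1461 higher and 3179 lower genes, a pseudocount of 5 gave 775 and 1818, and a 4-fold call gave 357 and 1452. The mean of the 4 normal libraries as reference gave 2518 and 2917, which moved the share of higher genes among calls from 31.5% to 46.3%. Leaving out genes that another normal library held at 4-fold or more of the lineage-negative level, an alternative chosen after seeing the data, gave 968 and 2697, and it removes T-cell genes by construction. The counts kept within 1.5 times under a pseudocount of 0.1 (1832 and 3607), a filter at FPKM 5 (1108 and 2219), no filter, median-ratio scaling (1411 and 3204), equal FPKM sums (1291 and 3306), a counting interval wholly beyond 2-fold (1378 and 3211) and removal of segments and clone-named genes (1181 and 2610). Some list medians changed sign. The Gimap family went from 0.58 to -0.19 and T-cell receptor beta segments from 1.70 to -1.43 with the mean of the normal libraries. Without the filter, alpha segments had a median of 0, beta segments -0.23 and gamma segments -0.0404, since segments under 1 FPKM in both libraries then enter, among them beta segments at 0 in AUL alone. No named gene changed direction in 1392 recomputed values, 47 of which no longer met the call and 5 of which newly met it. The chromosome 15 value lay between 0.65 and 0.76 and that of chromosome 12 between 0.34 and 0.48 over 5 settings chosen after seeing the data. Depth limits calls near the filter, where an FPKM of 1 in AUL has a counting interval of 0.749 to 1.31 for a gene of median length.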

Other observations

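The genes that led AUL were also read at a lower level in the B-ALL library. For the 14 genes with the largest differences other than Mycn, B-ALL held 0.0477% to 34.2% of the AUL level (median 14.4%), and no gene was above AUL. In lineage-negative cells the median was 0.526%, in normal B cells 0.351%, in AML 1.61% and in normal myeloid cells 0.101%. In T-ALL it was 12.5%, with 4 of the 14 above AUL, and in normal T cells 10.6%, with 2 above. The 14 genes were chosen as high in AUL and low in lineage-negative cells, so the low lineage-negative share was set by that choice. Choosing by high AUL values also tends to lower the shares in the other libraries. The source of these transcripts in the B-ALL library was not tested.

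Processed pseudogenes, copies of messengers that went back into the genome, leaned the other way from genes as a whole. Of 564 tested, 122 were higher (21.6%) and 39 lower (6.91%), with a median difference of 0.61, against -0.19 for the 8784 protein-coding genes. Among all tested genes 13.6% were higher and 29.5% lower. Many pseudogenes derive from abundant messengers, and reads may be shared between copy and parent.

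The GIMAP genes, a cluster on chromosome 6 that encodes GTPases of lymphocytes, had a median difference of 0.58. Gimap4 had 147 against 50.2 FPKM and Gimap1 70.7 against 29.9, while the other 6 of 8 were not called. Genes of type 2 innate lymphoid cells were lower in 4 of 6 tested and higher in none, with a median of -1.71. Of 8 tested stromal and endothelial genes 4 were lower and 2 were higher, namely Kitl (6.69 against 0.0623) and Nes (2.27 against 0.121). For all tested genes the shares were 29.5% lower and 13.6% higher, and these lists are small.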
